A study of Mus musculus with 9 samples.

Results

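Genes with known or predicted roles in endocytosis and membrane traffic were followed in the developing mouse lens: Epn3, Ehd4, Pacsin3, Asap2, Arl5c, Snx29 and Grtp1. These 7 genes were taken by symbol from 190 genes listed for the conditional knockout and mixed wild type lenses, where all 190 differed between the groups, so the 7 genes were selected on the cKO against mixed wild type values, which are given as a description with no test. Only 4 of the 7 (Epn3, Pacsin3, Asap2 and Grtp1) were among the 7676 genes of the inbred wild type tables, while Ehd4, Snx29 and Arl5c were not. The tables together held 7738 genes. RNA was sequenced from lenses at 15.5 days post conception, in 9 libraries of 30 pooled lenses each, 3 per group. The conditional knockout (cKO) was Sip1 flox/flox with MLR10Cre on a mixed strain background, where MLR10Cre drives Cre recombinase in lens cells from a modified alpha A-crystallin promoter. The mixed wild type was Sip1 flox/flox with no Cre on the same mixed background. The inbred wild type was C57Bl/6<har>, with no floxed allele given in its labels. Sip1 is the product of Zeb2, a zinc finger repressor. Zeb2 was not in the tables used here for the cKO and mixed wild type lenses, so these labels were not checked against the targeted gene.

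Endocytosis starts with adaptors that bind membrane lipid and cargo and recruit clathrin, and proceeds through curved-membrane proteins that help the vesicle to form and be cut off. Small GTPases of the ARF and Rab families, switched off by their GTPase activating proteins (GAPs), then set where vesicles go, and EHD proteins and sorting nexins direct cargo between recycling and degradation. The lens consists of an epithelium and of fibre cells, which lose their organelles as they mature.

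Levels are given as RPKM, the reads scaled by exon length and by all mapped reads, which the authors calculated. Sequencing depth, read from the smallest RPKM steps, was 25.9 to 27.4 M reads (M, mega) for cKO libraries, 38.7 to 44.1 M for the mixed wild type, and for the inbred wild type 14.1 to 16.7 M. Depth therefore differed with the group, and its effect, that of the Cre transgene and that of any library batch cannot be told apart from the loss of Sip1. The inbred tables listed 17 of 17 lens fibre markers and 7 of 7 lens epithelium markers. In bulk tissue, fewer cells of a type and less RNA per cell cannot be told apart.

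Promoter sequence is shown because Zeb2 protein binds CACCT elements. RefSeq promoters (GRCm38.p6) were found for 4 of the 7 genes, and the windows below run from 250 to 51 bases before the start site, 5′ to 3′ on the gene's strand. CACCT or its reverse complement AGGTG is in capitals.
Grtp1, chr8:13200675-13200874, minus strand: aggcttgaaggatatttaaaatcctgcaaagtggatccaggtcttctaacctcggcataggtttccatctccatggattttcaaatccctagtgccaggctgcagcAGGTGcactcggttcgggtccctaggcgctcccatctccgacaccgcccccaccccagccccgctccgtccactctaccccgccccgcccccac
Snx29, first start site, chr16:11322654-11322853, plus strand: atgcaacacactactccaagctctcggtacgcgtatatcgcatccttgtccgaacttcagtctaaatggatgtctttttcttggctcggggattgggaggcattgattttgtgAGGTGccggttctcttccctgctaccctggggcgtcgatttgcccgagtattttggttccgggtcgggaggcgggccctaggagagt
Ehd4, chr2:120154626-120154825, minus strand: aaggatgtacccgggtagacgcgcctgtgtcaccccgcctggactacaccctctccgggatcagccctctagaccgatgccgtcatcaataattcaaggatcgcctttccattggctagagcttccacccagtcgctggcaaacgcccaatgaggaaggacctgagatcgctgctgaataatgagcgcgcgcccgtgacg
The Grtp1 window held 1 match, 144 bases before the start and part of CAGGTG, and 155 of its bases lie in exons of the noncoding gene 2810030D12Rik. The Snx29 window held 1 match 137 bases before the start. The Ehd4 window and that of the second Snx29 start site held 0. The windows of the Pacsin3 start sites, which lie partly or wholly in annotated Pacsin3 exons and are not shown, held 2 and 0. Of these 2, the match 103 bases before the start was part of CACCTG. Over 32851 RefSeq promoters cut to the same window and searched on both strands, 39.5% held CACCT and 14.4% held CACCTG, the longer motif that contains it. These matches describe letters in a window and are not shown to be binding sites.

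Of the 7 genes, Epn3, Grtp1, Asap2, Snx29 and Ehd4 were higher in cKO than in mixed wild type lenses, and Arl5c and Pacsin3 were lower in RPKM. Snx29 (-0.0019, SE 0.083) and Ehd4 (0.046, SE 0.063) were within 1 SE of 0 under quantile normalization. That scaling used only the 190 listed genes. The cKO and mixed wild type libraries did not overlap for any of the 7. This count carries no weight of its own, since the groups did not overlap for 100% of the 190 listed genes, 54.2% of them higher and 45.8% lower in cKO.

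Epn3 encodes an epsin, an adaptor that binds phosphoinositides in the membrane, clathrin and ubiquitinated cargo. It was at 17.4, 15.025 and 19.5 RPKM in cKO lenses, against 2.03, 1.97 and 1.96 RPKM in the mixed wild type. The lowest cKO library was far above the highest mixed wild type library, and the mixed wild type libraries were close together. They were closer than counting error, with an exact Poisson interval of 1.81 to 2.26 RPKM at 95% for mixed wild type replicate 1. The ratio of mean RPKM was 8.72, the largest of the 7, and the difference in log2(RPKM + 0.5) was 2.83 (SE 0.11).

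Ehd4 encodes an EH domain ATPase of endosomes, which takes part in recycling of internalised cargo. It was at 3.44, 3.42 and 3.99 RPKM in cKO lenses, against 1.26, 1.12 and 1.14 RPKM in the mixed wild type. The ratio was 3.08, and the log2 difference was 1.30 (SE 0.098). In the authors' normalized values Ehd4 differed 2.505-fold, the smallest fold in either direction of the 190, so it lay at the edge of the list. No gene outside the edge had values in both groups.

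Pacsin3 encodes an F-BAR protein that binds dynamin and curved membrane. It was at 3.69, 3.73 and 3.68 RPKM in cKO lenses, against 7.52, 7.85 and 8.32 RPKM in the mixed wild type. All cKO libraries were lower, with little spread within cKO (CV 0.730%). That spread was under counting error, since the 438 reads of cKO replicate 1 had an exact Poisson interval of 3.36 to 4.06 RPKM at 95%. It is therefore no measure of even expression. Pacsin3 was 2.13-fold lower in cKO, with a log2 difference of -0.997 (SE 0.086).

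Asap2 encodes an ARF GAP with a BAR domain, which ends the active state of ARF GTPases at membranes. It was at 12.1, 9.99 and 12.4 RPKM in cKO lenses, against 2.91, 2.03 and 2.32 RPKM in the mixed wild type. The ratio was 4.76, and the log2 difference was 2.05 (SE 0.13).

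Arl5c encodes an ARF-like GTPase, related to Arl5a and Arl5b of the trans-Golgi network. It was at 0.880, 0.951 and 0.724 RPKM in cKO lenses, against 1.93, 3.56 and 3.72 RPKM in the mixed wild type. The groups did not overlap, but mixed wild type replicate 1 was lower than its replicates 2 and 3. Arl5c was 3.60-fold lower in cKO, with a log2 difference of -1.36 (SE 0.19), and -1.62 without mixed wild type replicate 1. It rested on few reads, with an annotated exon length of 2073 bases (GENCODE M21): 50, 51 and 39 reads in cKO, against 155, 318 and 340 reads in mixed wild type.

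Snx29 encodes a sorting nexin with a phosphoinositide-binding PX domain. It was at 3.36, 3.79 and 3.51 RPKM in cKO lenses, against 1.31, 0.942 and 1.17 RPKM in the mixed wild type. The ratio was 3.12, and the log2 difference was 1.31 (SE 0.11).

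Grtp1 encodes a protein with a TBC domain, the fold that acts as a GAP for Rab GTPases, and is named for its regulation by growth hormone. It was at 12.5, 13.1 and 13.6 RPKM in cKO lenses, against 2.18, 2.19 and 1.83 RPKM in the mixed wild type. The ratio was 6.32, the second largest of the 7, and the log2 difference was 2.40 (SE 0.096).

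The sizes of all 7 differences depended on scaling between libraries. Over the 190 genes the median log2 difference was 1.37 in RPKM, 0.19 after quantile normalization and 0.49 after median centring, and all 7 genes moved down with it. Quantile normalization gave log2 differences of 2.18 for Epn3, 0.046 for Ehd4, -1.91 for Pacsin3, 1.25 for Asap2, -2.46 for Arl5c, -0.0019 for Snx29 and 1.62 for Grtp1. Median centring gave 1.95 for Epn3, 0.41 for Ehd4, -1.88 for Pacsin3, 1.16 for Asap2, -2.25 for Arl5c, 0.43 for Snx29 and 1.52 for Grtp1. The scalings therefore made the differences of Pacsin3 and Arl5c larger and those of the other 5 genes smaller. Both were computed over the 190 listed genes only, all of which differed between these groups. They set the libraries to a common distribution or median, so a downward shift was built in. The scaled values therefore cannot decide whether Snx29 or Ehd4 differed.

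**Figure D1:**
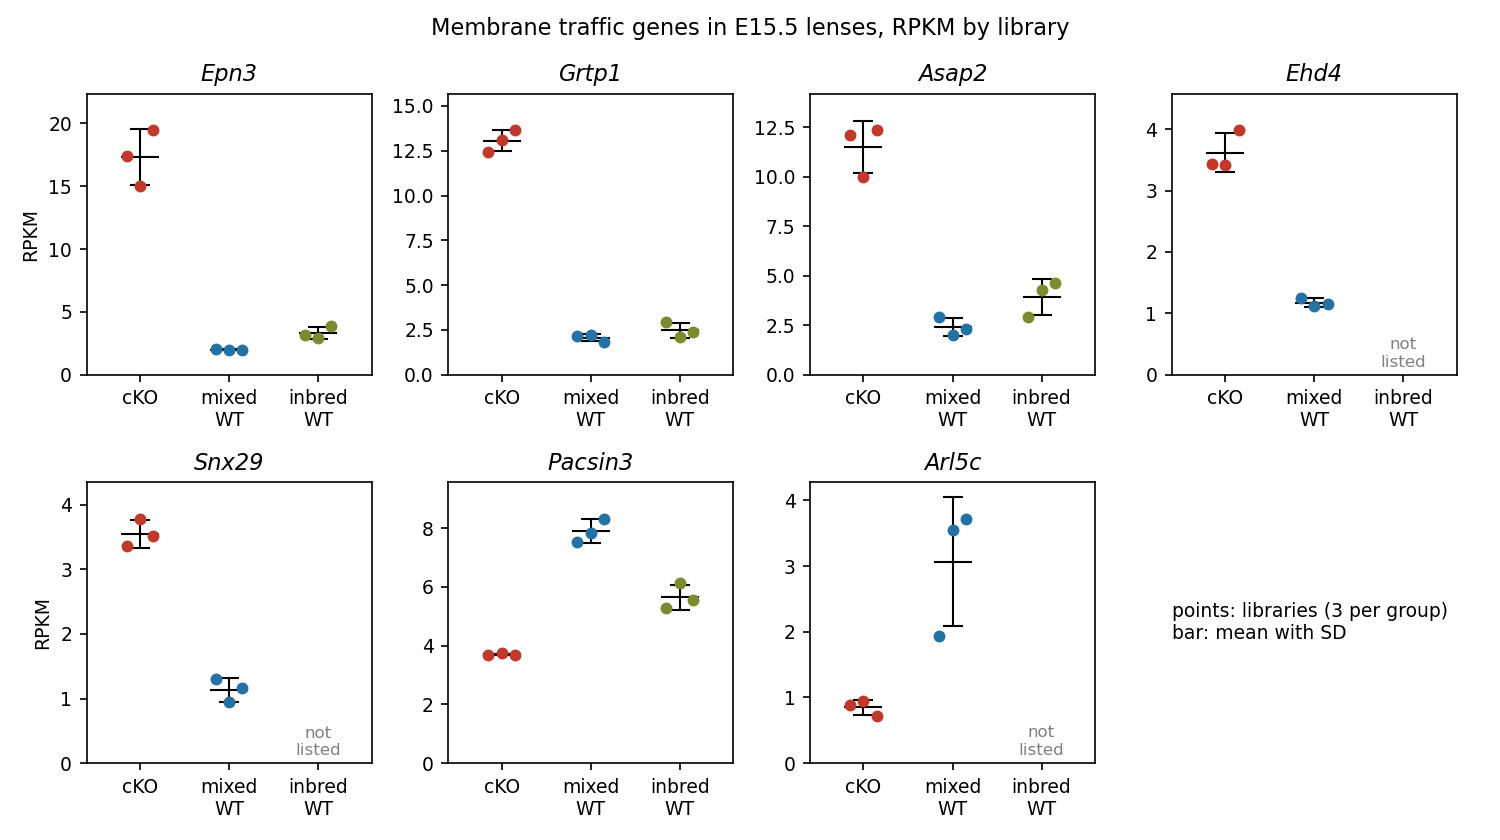
RPKM per library (linear axis, its own range for each gene) for the 7 genes in cKO, mixed wild type and inbred wild type lenses, each point 1 library of 30 lenses. In the RPKM values the cKO libraries lie above the mixed wild type libraries for 5 genes and below them for Pacsin3 and Arl5c. Quantile normalization, over the listed genes only, brings Snx29 to -0.0019 (SE 0.083) on the log2 scale.

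Where the authors' exon length was given, the RPKM values stood on 1581 to 2057 Epn3 reads in cKO libraries, against 319 to 351 in mixed wild type and 195 to 221 in inbred wild type. The fewest were for Grtp1 in inbred wild type, where 103 reads in replicate 3 gave 2.36 RPKM with an exact Poisson interval of 1.92 to 2.86 RPKM at 95%. Such intervals cover counting error only. In cKO lenses Epn3, Grtp1 and Asap2 were the highest of the 7 in that order, and the libraries of Pacsin3, Ehd4 and Snx29 overlapped with their neighbours in the order, with Arl5c lowest. In mixed wild type lenses Pacsin3 was highest and apart from the others, and Arl5c, Asap2, Grtp1 and Epn3 followed with libraries that overlapped between neighbours, above Ehd4 and Snx29, which overlapped with each other. Summed over the 7 genes, RPKM was 53.4, 50.015 and 57.4 in cKO libraries, against 19.1, 19.6 and 20.5 in mixed wild type libraries. The 5 genes higher in cKO made up 90.6% to 92.3% of the cKO sum, against 41.1% to 50.6% of the mixed wild type sum. The 5 were grouped by their direction in these same libraries, so a larger share in cKO followed from the grouping.

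**Figure D2:**
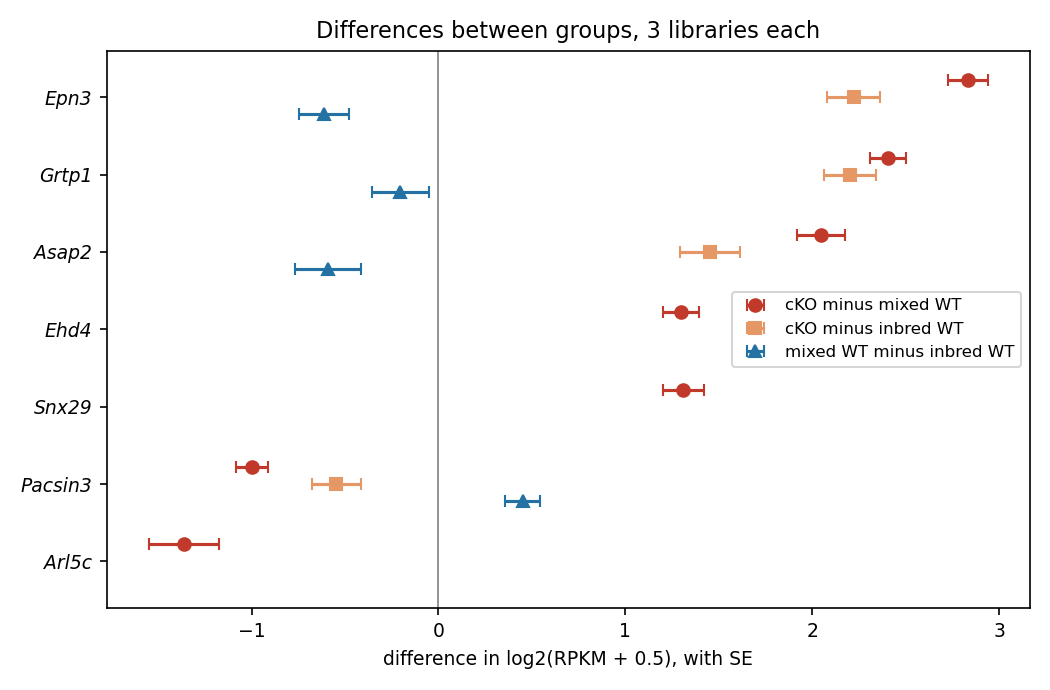
Differences between groups in log2(RPKM + 0.5), with SE, for the 7 genes in cKO minus mixed wild type, cKO minus inbred wild type and mixed minus inbred wild type; Ehd4, Snx29 and Arl5c have no inbred value. Epn3 has the largest difference in cKO minus mixed wild type, at 2.83. Quantile normalization, over the listed genes only, takes Snx29 to -0.0019 (SE 0.083) there.

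Against inbred wild type, 4 of the 7 genes could be compared. The background is the 128 listed genes that were also in the inbred tables, where no mean was under 2 RPKM. It leaves out 62 of the 190 listed genes. The inbred libraries took no part in the choice of the genes, whereas the mixed wild type libraries did. The p-values for mixed against inbred wild type are therefore not independent of that choice. Strain background, depth and floxed alleles differ between the wild types and cannot be told apart. In mixed wild type lenses, limma called 3 of the 4: Epn3 and Asap2 lower and Pacsin3 higher, where 49.2% of the 128 shared genes were called, 30.5% higher and 18.8% lower, with a median log2 difference of 0.083. The libraries of the wild types did not overlap for the same 3 genes, and for 57% of the 128. Among these 128 genes 39 were higher and 24 lower, and these counts depended on scaling, with 28 higher and 29 lower under quantile normalization and 23 and 37 under median centring.

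Epn3 was at 2.03, 1.97 and 1.96 RPKM in the mixed libraries, against 3.17, 2.94 and 3.84 RPKM in the inbred libraries, with no overlap. Its mean was 1.67-fold higher in inbred wild type (log2 difference -0.61, SE 0.13, limma adjusted p = 0.00526). Asap2 was at 2.908, 2.03 and 2.32 RPKM in the mixed libraries, against 2.914, 4.26 and 4.61 RPKM in the inbred libraries, so that the groups almost touched. It averaged 2.42 ± 0.450 RPKM in mixed wild type, against 3.93 ± 0.897 RPKM in inbred lenses (SD, n = 3 each). The Asap2 difference was -0.59 (SE 0.18, limma adjusted p = 0.0210). That call was lost without inbred replicate 2 (adjusted p = 0.0606) or 3 (adjusted p = 0.0954). Pacsin3 was at 7.52, 7.85 and 8.32 RPKM in the mixed libraries, against 5.29, 6.12 and 5.54 RPKM in the inbred libraries. The groups did not overlap, with means of 7.90 ± 0.405 RPKM in mixed wild type, against 5.65 ± 0.428 RPKM in inbred lenses (SD, n = 3 each) and a difference of 0.45 (SE 0.096, limma adjusted p = 0.00450). Grtp1 was at 2.18, 2.19 and 1.83 RPKM in the mixed libraries, against 2.93, 2.12 and 2.36 RPKM in the inbred libraries, and the groups overlapped. Its difference of -0.20 (SE 0.15) was not called (limma adjusted p = 0.279), and was 0.16 under quantile normalization. That scaling also ended the calls of Pacsin3 (adjusted p = 0.0532) and Asap2 (adjusted p = 0.145), and median centring ended that of Pacsin3 (adjusted p = 0.0603).

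In cKO against inbred wild type lenses all 4 genes were called. These groups also differ in strain background, floxed alleles, the Cre transgene and depth, which cannot be told apart from the loss of Sip1. The cKO libraries also serve in the comparison with mixed wild type and took part in the choice of the genes, so these p-values are not independent of that choice. Limma called 93.8% of the 128 shared genes here, 32.8% higher and 60.9% lower, with a median log2 difference of -0.57, so 4 of 4 is close to the background. These shares and this median leave out the 62 listed genes outside the inbred tables, so they do not describe all 190. Grtp1 was 5.29-fold higher in cKO (13.1 ± 0.598 RPKM in cKO, against 2.47 ± 0.414 RPKM in inbred lenses; SD, n = 3 each), a log2 difference of 2.20 (SE 0.14, limma adjusted p = 1.54e-09). Epn3 was 5.22-fold higher (17.3 ± 2.22 RPKM in cKO, against 3.32 ± 0.469 RPKM in inbred lenses), a log2 difference of 2.22 (SE 0.14, limma adjusted p = 1.54e-09). Asap2 was 2.93-fold higher (1.45, SE 0.16, limma adjusted p = 4.82e-07). Pacsin3 was 1.53-fold lower (-0.55, SE 0.13, limma adjusted p = 0.00102). For all 4 genes the inbred mean lay between those of cKO and mixed wild type, though for Grtp1 the libraries of the wild types overlapped. The share of the 128 shared genes with this order was not counted. The cKO and mixed wild type values took part in the choice, so the order is not read as a trait of these 4. For Epn3, Asap2 and Grtp1 the inbred mean was nearer to mixed wild type than to cKO.

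The other members of each family were read in the inbred wild type lenses, where they could be compared within a gene family per length. In the epsin family Epn1 was at 64.8 ± 3.20 RPKM and Epn2 at 4.84 ± 0.444 RPKM, against Epn3 at 3.32 RPKM (SD, n = 3 each). Ehd1, a recycling endosome member of the EHD family, was at 40.4 ± 3.31 RPKM and Ehd2 at 2.86 ± 0.460 RPKM. Pacsin2 was at 13.6 ± 0.729 RPKM, above Pacsin3. Asap1 was at 34.7 ± 2.37 RPKM, above Asap2, and Arl5a was at 12.0 ± 0.777 RPKM and Arl5b at 2.71 ± 0.431 RPKM. With Ehd4 and Arl5c, the relatives Ehd3, Pacsin1 and Asap3 were not listed in the inbred tables.

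**Figure D3:**
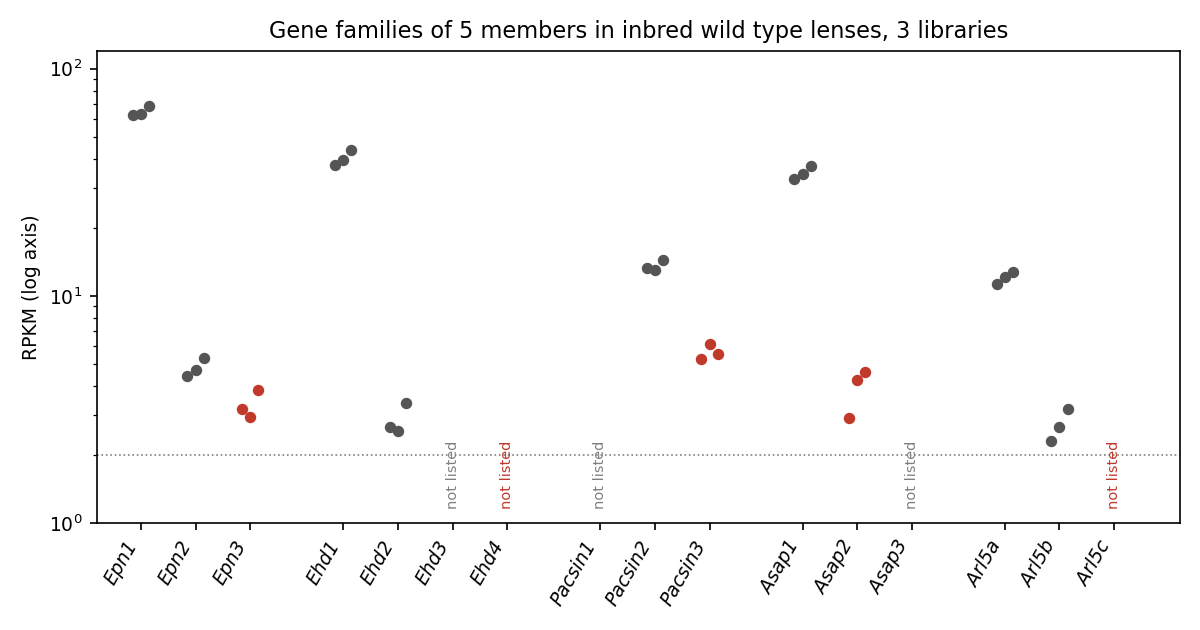
RPKM per library (log axis) of members of 5 gene families in inbred wild type lenses, with the genes selected on cKO against mixed wild type in red and their relatives in grey; the dotted line is 2 RPKM, the lowest mean of a gene in these tables. Epn1, Ehd1, Asap1 and Arl5a are the highest of their families, and Epn3 is below Epn1.

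The other genes of these pathways were counted in lists of 196 genes chosen with earlier results known. None was among the 190 genes of the cKO and mixed wild type tables, so no direction can be given for them. In inbred wild type lenses 135 of the 196 were listed. Of 47 clathrin and adaptor genes 35 were listed (median 12.2 RPKM), led by Tom1 (106.7 RPKM), Epn1 and Ap2a1 (64.4 RPKM). Of 58 ARF genes and their regulators 42 were listed (median 11.2 RPKM), led by Arf1 (129 RPKM), Arl3 (119 RPKM) and Arf5 (57.8 RPKM). Of 33 sorting nexin and retromer genes 25 were listed (median 8.71 RPKM), led by Snx3 (66.5 RPKM), Snx18 (43.6 RPKM) and Snx22 (37.8 RPKM). The F-BAR and EHD list held 11 of 21 (median 3.68 RPKM), led by Ehd1, Pacsin2 and Fnbp1l (6.55 RPKM), and the TBC list 22 of 37 (median 5.61 RPKM), led by Tbc1d7 (26.7 RPKM), Tbc1d22a (24.4 RPKM) and Tbc1d15 (7.95 RPKM). Among all 7676 inbred genes, Pacsin3, Asap2, Epn3 and Grtp1 lay below 61.7%, 76.6%, 82.8% and 93.2% of them by mean RPKM, at a list median of 7.65 RPKM.

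By likeness of log2 profile, each gene was set beside the 2 genes nearest in root mean square difference. Candidates were only other listed genes, 127 over 9 libraries and 189 over 6, all separated between cKO and mixed wild type. That contrast enters each profile, so nearness describes these listed genes only and tests nothing. Over 9 libraries the nearest were Fam46b for Epn3 (0.140), Hddc3 for Grtp1 (0.114), Fbxo10 for Asap2 (0.119) and Rps29 for Pacsin3 (0.0905). Over the 6 cKO and mixed wild type libraries they were Magi2 for Ehd4 (0.0566), Itgb8 for Snx29 (0.0502) and Fxyd1 for Arl5c (0.184). In second place were Wnk2, Lbh, Rapgef5 and Cyb5r2 for Epn3, Grtp1, Asap2 and Pacsin3, and Cyp26a1, Rassf4 and S100a11 for Ehd4, Snx29 and Arl5c.

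The authors' normalized values gave smaller ratios than RPKM for the 5 genes higher in cKO, at 7.25 for Epn3, 5.41 for Grtp1, 3.64 for Asap2 and 2.59 for Snx29 beside 2.505 for Ehd4. For the genes lower in cKO they gave larger differences, 4.41-fold for Arl5c and 2.62-fold for Pacsin3. The normalized ratio was 0.765 to 0.856 of the RPKM ratio over the 7 genes, and 0.822 in the median over the 190.

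**Figure D4:**
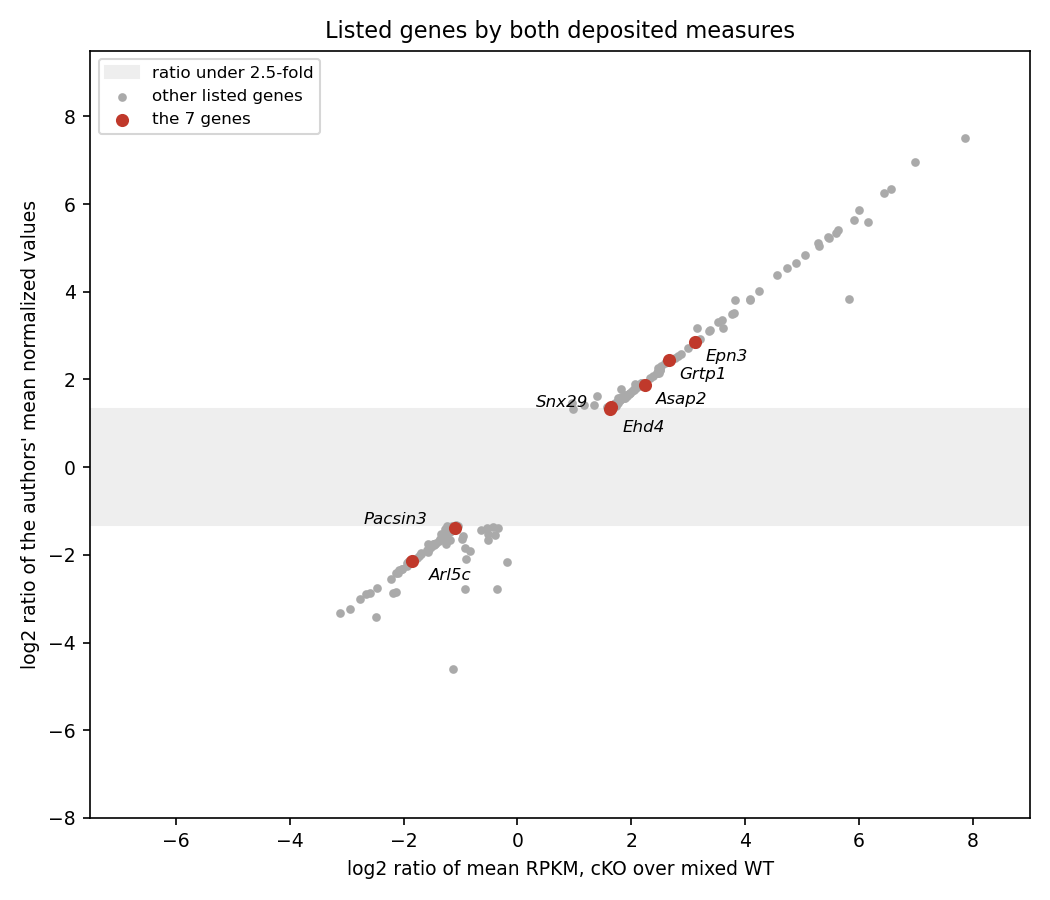
Log2 ratio of mean RPKM (x axis) against log2 ratio of the authors' mean normalized values (y axis), cKO over mixed wild type, for 188 listed genes, with the 7 genes in red and the band of ratios under 2.5-fold in grey; 2 genes had a mean of 0 in a group. The 7 genes lie outside the band, Ehd4 at its edge with a normalized ratio of 2.505. Under quantile normalization of RPKM, over the listed genes only, Snx29 is at -0.0019 (SE 0.083).

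Markers of cell types could be read in cKO and mixed wild type lenses only where they were among the 190 genes. All 190 differed between these groups, so a difference in each listed marker was fixed by the selection. Surface ectoderm markers Krt8, Krt18, Dsp and Dsc2 (4 of 15) summed to 14.9 to 19.6 RPKM in cKO libraries, against 2.06 to 2.71 RPKM in mixed wild type libraries. The endothelial marker Tek (1 of 8) was at 7.84 to 8.61 RPKM in cKO, against 2.51 to 2.82 RPKM in mixed wild type. Erythroid markers (Hba-a2 and Hba-x, 2 of 11) summed to 84.6 to 144 RPKM in cKO, against 398 to 538 RPKM in mixed wild type, and neuron and retina markers (Elavl4 and Stmn4, 2 of 14) to 0.527 to 1.10 RPKM in cKO, against 5.62 to 6.15 RPKM in mixed wild type. Lens fibre markers (Birc7 and Dnase2b, 2 of 17) summed to 16.0 to 21.0 RPKM in cKO, against 62.7 to 70.7 RPKM in mixed wild type. Crygs, a crystallin gene outside the marker list and the next listed gene after Snx29 on its chromosome, went the other way, with a mean of 3725 ± 454 RPKM in cKO, against 416 ± 41.3 RPKM in mixed wild type (SD, n = 3 each). The muscle markers (2 of 12) differed in opposite directions: Actn2 averaged 1.14 ± 0.428 RPKM in cKO, against 8.77 ± 1.83 RPKM in mixed wild type, and Tnnt1 10.1 ± 0.331 RPKM in cKO, against 0.229 ± 0.0851 RPKM in mixed wild type. Their sum was 11.1 to 11.6 RPKM in cKO, against 7.84 to 11.2 RPKM in mixed wild type. No listed marker was at 0 in a library, and lens epithelium, macrophage and periocular markers were not among the 190. The part of these cell types in the differences of the 7 genes was not tested.

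The libraries were made without strand marking. In GENCODE M21, 249 bases (6.08%) of Grtp1 exons overlap Lamp1 on the opposite strand, a gene at 127 ± 3.15 RPKM in inbred lenses (SD, n = 3), and 402 bases (5.77%) of Asap2 exons overlap Itgb1bp1 on the opposite strand (4.88 ± 0.589 RPKM). Asap2 exons also overlap the pseudogene Gm5977 (481 bases, 6.91%) and the noncoding genes Gm30124 (337 bases) and Gm21989 (335 bases) on the same strand, and Gm20535 (114 bases) on the opposite strand. Of 31-base words, 10.6% of Asap2 and 4.93% of Grtp1 occur in transcripts of other genes. The levels of Asap2 and Grtp1 are therefore uncertain, since reads of such partners cannot be told apart from their own. The authors' exon length was 3091 bases for Grtp1, against 4093 in GENCODE M21, and 6971 for Asap2, against 6962. Whether the overlapping bases were part of the authors' gene models is not known.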

How the data were processed

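Lenses were sequenced in 9 libraries (3 per group, 30 pooled lenses each, described as independent biological replicates in the labels), prepared with a TruSeq RNA kit per the labels' protocols. Because lenses were pooled, p-values measure the spread between pools. The submitters' processing notes name CASAVA 1.8.2. For aligner, annotation and build, the sources used here give nothing. The authors deposited, per the file headers, RPKM, a normalized expression score without a stated unit, and, in the inbred files, exon length. Of 7700 inbred rows, 24 with 12 repeated symbols were left out. Genes were joined by symbol, 128 in all tables. Depth came from RPKM times exon length, whose low values were whole multiples of a step in 100% of cases (tolerance 0.1 reads). The step was itself fitted to the lowest values of each library. The check covered 2190 to 2921 values per inbred library, but 24 to 29 in cKO and 10 to 12 in mixed wild type. For these last 2 groups the share rests on few values and is not independent of the fit.

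Differences were computed with limma 3.58.1 (R 4.3.3) with trend on log2(RPKM + 0.5), over genes averaging 1 RPKM or more across the 6 libraries of a comparison, adjusted by Benjamini-Hochberg at 0.05. This scale understates changes of low genes. An exact permutation test of 3 against 3 cannot go below p = 0.1. The code was tested on simulated data. The members and lists were chosen with earlier results of these data known. Named genes were the 7 members, the 2 nearest by profile, the 3 highest inbred genes of each list, listed markers, and listed neighbours by RefSeq order. Alternatives were quantile normalization, median centring, pseudocounts of 0.1 and 1, no filter, a 2 RPKM filter, no trend, a joint fit, the replicate block and each library left out. Both scalings saw only the genes of a comparison, 190 for cKO against mixed wild type and 128 against inbred wild type. Other steps ran in Python 3.11.15 (scipy 1.17.1, pandas 2.3.3, numpy 2.4.6).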

Additional observations from a re-analysis of the deposited data

How the results depend on the processing

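In cKO against mixed wild type the libraries did not overlap for any of the 7 genes. Leaving out a library or adding a block cannot end that separation, so those counts test nothing. Under quantile normalization 5 of the 7 genes separated, all 7 log2 differences moved down, and Snx29 came to -0.0019 (SE 0.083), within 1 SE of 0. That scaling used only listed genes, all chosen for a difference, so it cannot decide whether Snx29 differed. The joint fit of 9 libraries could use 4 of the 7, since the others are outside the inbred tables. In mixed against inbred wild type, 3 of 4 genes were called, 1 under quantile normalization, and 2 to 3 with a library left out; the cause was not tested. Pacsin3 was lost under quantile normalization (adjusted p = 0.0532) and median centring (adjusted p = 0.0603), and Asap2 under quantile normalization (adjusted p = 0.145); Epn3 was called in all alternatives run. All 4 genes were called in cKO against inbred wild type under each alternative run. The deviations of same-numbered libraries correlated at -0.10, -0.11 and -0.15 between cKO and mixed wild type, -0.52, -0.15 and -0.24 between mixed and inbred wild type, and -0.01, 0.24 and 0.20 between cKO and inbred wild type. In no comparison were all 3 over 0.1 or every library closest to its own number, so the numbers were not taken as pairs. With the replicate number as a block, 3 of 4 genes were still called in mixed against inbred wild type and 4 of 4 in cKO against inbred wild type, and 47 of 128 genes were called for mixed against inbred wild type (63 without the block) and 120 for cKO against inbred wild type (120 without it). Depth limits Arl5c most, at 39 to 51 reads in cKO libraries.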

Other observations

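Arl5c lies on chromosome 11 with 1 coding gene between it and Rpl19 in the RefSeq order (174 of the 190 symbols matched), and Rpl19 averaged 299 ± 15.8 RPKM in cKO lenses and 338 ± 20.2 RPKM in mixed wild type lenses (SD, n = 3 each). The nearest listed genes of the other members (Zbtb4 and Ngfr for Epn3, Acss2 for Ehd4, Gcg for Pacsin3, Sntg2 for Asap2, Adcy9 and Crygs for Snx29, Atp7b for Grtp1) lay 30 or more coding genes away, and 211 coding genes separate Pacsin3 from Ehd4 on chromosome 2. Stac2, which follows Rpl19 and was named after its values were seen, was at 19.4, 20.2 and 22.5 RPKM in cKO lenses, 6.23, 6.54 and 6.38 RPKM in mixed wild type lenses and 9.68, 10.4 and 11.2 RPKM in inbred wild type lenses.

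The authors' normalized value per RPKM and per kilobase of exon was 27.3 for Epn3, 26.9 for Pacsin3 and 26.1 for Grtp1 but 13.9 for Asap2. The cause was not tested.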
